A study of Mus musculus with 44 samples.

Results

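Nuclei labelled D2 were compared with nuclei labelled D1 in the control libraries of a mouse nucleus accumbens study whose treated animals received the nuclear receptor RXRa (retinoid X receptor alpha). The comparison was chosen by its labels and used 19 of the series' 44 samples: 10 D1 libraries (5 female, 5 male) and 9 D2 libraries (4 female, 5 male). All 19 came from animals given AAV9-CAG-DIO-EGFP, an adeno-associated virus whose EGFP insert needs Cre recombinase to be expressed, so the control nuclei carry a vector too. A further 16 sorted libraries, from animals whose vector also carried RXRa, are used below as the same measure in samples outside the comparison. The labels used here do not name the Cre line, the age, the gate of the sort or the animals behind each library. The p-values therefore measure the spread between these libraries, which may be partly technical.

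The nucleus accumbens consists mostly of GABA-releasing spiny projection neurons. Those that express the dopamine receptor gene Drd1 couple dopamine to a rise in cyclic AMP and typically make the peptides dynorphin (Pdyn) and substance P (Tac1). Those that express Drd2 couple it to a fall in cyclic AMP and typically make enkephalin (Penk), with the adenosine receptor Adora2a and the constitutively active receptor Gpr6. Since whole nuclei were pooled, a lower level from fewer expressing nuclei cannot be told apart from less RNA per nucleus.

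Total counts were 12211655 to 27757463 in the D1 libraries and 12499994 to 19278855 in the D2 libraries. Levels are CPM, counts per 1e6 of the TMM-scaled library size. The libraries of sorted nuclei gave counts over most annotated genes, also over genes with no count in bulk accumbens tissue. Over 1576 such silent protein-coding genes the median level per length, in CPM per kb of gene body, was 0.493 to 0.554 in D1 libraries and 0.502 to 0.597 in D2 libraries. The D2 value was higher by 0.07 on the log2 scale (exact two-sided permutation test within sex, p = 0.049), and this difference lost the threshold in 13 of 19 recomputations that left out a library. Across the silent genes the mean level rose with gene body length (Spearman rho 0.8). The source of this signal was not tested. The vector's GFP sequence was counted in every library, at 121 to 471 CPM in D1 and 206 to 895 CPM in D2. Sex-linked transcripts matched the sex label in all 19 libraries. D2 male replicate 4 stood apart, with a summed oligodendrocyte marker level of 367 CPM against 182 to 234 CPM in the other D2 libraries and 191 to 223 CPM in D1.

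The sort labels were checked first. Drd2 had a lowest, median and highest level of 51.1, 64 and 73.4 CPM in D1 and 538, 690 and 969 CPM in D2, a log2 difference of 3.48 (SE 0.09, edgeR adjusted p = 3.54e-18). Drd1 had 31.5, 47.6 and 79.6 CPM in D1 and 6.74, 14.5 and 17.2 CPM in D2 (log2 -2.02, SE 0.21, edgeR adjusted p = 2.37e-06). Neither gene's D1 and D2 libraries overlapped, so by these receptor genes every library matched its population label. Some genes beside them moved with them. All 7 tested genes in the stretch from Gm18974 to Gm18473 around Drd1 were lower in D2, among them Sfxn1 (log2 -1.70). All 4 from Gm4894 to Ttc12 around Drd2 were higher, among them Ttc12 (log2 1.84) and Ankk1 (log2 2.06). Both stretches run from their first to their last called gene, so the share called inside them is partly set by how they were drawn. Within 1 Mb of Drd1 or Drd2, 72 genes were tested and 11 were called, the receptors included. Gm4894, with 0.0198 CPM in bulk tissue, differed by 0.92. What part of the Drd1 and Drd2 differences belongs to the loci as a whole was not tested.

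Of 42202 genes tested, 198 passed an edgeR adjusted p of 0.05 (0.469%), 73 higher in D2 (0.173%) and 125 lower (0.296%). Of these, 11 lay within 1 Mb of Drd1 or Drd2, where 72 genes were tested, and 69 higher and 118 lower genes lay elsewhere. At least 2-fold differences were found for 27 of the 198 genes, 17 of them away from the dopamine receptor loci. The D1 and D2 libraries did not overlap for 58 of all genes tested (0.137%), and 54 of these were called. The number of calls depended on single libraries, from 81 without D2 female replicate 3 and 83 without D2 male replicate 4 to 826 without D2 female replicate 1. With scaling by library totals in place of TMM the split was 71 higher and 59 lower. Calls made without each of the 19 libraries, and also with library totals and with silent-gene density as a covariate, numbered 59, of which 48 lay beyond the receptor loci (28 higher, 20 lower).

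**Figure D1:**
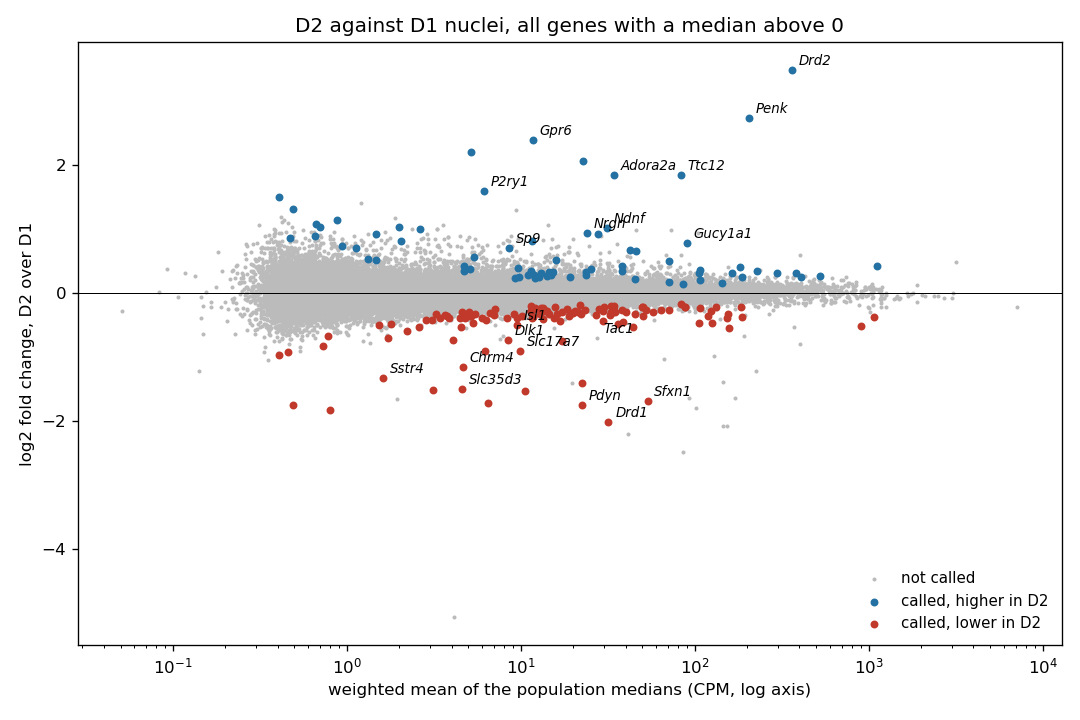
Log2 fold change of D2 over D1 against expression level (CPM, log axis) for genes whose population medians are not both 0; blue and red points are the genes called higher and lower in D2, grey points are not called. Among the largest called differences are Drd2 (3.48), Penk (2.73) and Gpr6 (2.38) above 0 and Drd1 (-2.02) and Pdyn (-1.75) below it. Genes at low level also reach such sizes, among them Gm10493 (-1.83), with medians of 1.17 CPM in D1 and 0.391 CPM in D2.

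The D2 identity list held 13 genes, of which 12 could be tested. Among those, 9 were called higher in D2 and 0 lower, with a median log2 difference of 0.48 against 0.02 over all genes tested. Of the 13 D1 identity genes, 8 were called lower in D2 and 0 higher, with a median of -0.52. Without the receptors and their neighbours Ttc12 and Sfxn1, 7 D2 identity genes and 6 D1 identity genes remained called. These lists were drawn from known markers of the populations, with earlier results of these data known in outline. The calls and medians are therefore no independent test. Both medians include the receptors and the neighbours Ttc12 and Sfxn1.

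Penk, which encodes the enkephalin precursor, had 23.9, 54.8 and 133 CPM (lowest, median, highest) in D1 and 196, 372 and 727 CPM in D2. The log2 difference was 2.73 (SE 0.27, edgeR adjusted p = 1.51e-06), a 6.63-fold higher level in D2. The highest D1 library stayed below the lowest D2 library. Per length, Penk reached 70.2 CPM per kb in D2, far above silent-gene density, and 10.4 CPM per kb in D1, which is also above it.

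Gpr6 had 2.46, 3.9 and 7.5 CPM in D1 and 11.2, 20.4 and 41.6 CPM in D2 (log2 2.38, SE 0.22, edgeR adjusted p = 5.37e-07). Adora2a, the receptor that raises cyclic AMP in these neurons, had 14.3, 16.3 and 22.3 CPM in D1 and 35, 54.1 and 95.5 CPM in D2 (log2 1.83, SE 0.15, edgeR adjusted p = 3.41e-08). Both genes separated the populations with no overlapping library. In D1, Adora2a had 0.912 CPM per kb and Gpr6 1.69 CPM per kb, and in D2 they had 3.02 and 8.84 CPM per kb.

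Smaller differences were found for the other D2 identity genes. Sp9, a zinc-finger factor needed for the development of D2 neurons, had 5.63, 6.68 and 8.32 CPM in D1 and 7.95, 10.6 and 15.2 CPM in D2 (log2 0.69, SE 0.10, edgeR adjusted p = 0.000979), with the lowest D2 library inside the D1 range. The delta opioid receptor gene Oprd1, whose product binds enkephalin, had 20 to 24 CPM in D1 and 24.6 to 30.6 CPM in D2 (log2 0.28, edgeR adjusted p = 0.00574), without overlap. The call for Oprd1 was lost with library totals, with a block by replicate number and in a fit of all 35 sorted libraries. Ptprm, a receptor tyrosine phosphatase, differed by 0.26 and Grik3, a kainate receptor subunit, by 0.25 on the log2 scale. Ptprm and Grik3 also lost their calls in the fit of all 35 libraries. Per length, in D1 and D2, Sp9 had 0.523 and 0.827 CPM per kb and Oprd1 0.656 and 0.765 CPM per kb. Ptprm had 0.707 and 0.833 CPM per kb and Grik3 0.767 and 0.912 CPM per kb. These levels lay near silent-gene density or somewhat above it, and the part of silent-gene signal in them was not tested. Six3 (0.19), Upb1 (0.06) and Plxdc1 (-0.02) did not pass the test.

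Pdyn, the dynorphin precursor gene, had 23.9, 33.1 and 52.1 CPM in D1 and 9.53, 10.4 and 12.5 CPM in D2. The log2 difference was -1.75 (SE 0.13, edgeR adjusted p = 8.69e-09), with no overlap. The 9 D2 libraries spanned a narrow range, and their level per length, 0.786 CPM per kb, lay near that of the silent genes, against 2.5 CPM per kb in D1. Slc35d3, a membrane protein of the nucleotide-sugar transporter family, had 4.94, 6.3 and 11.3 CPM in D1 and 1.44, 2.67 and 3.49 CPM in D2 (log2 -1.50, SE 0.20, edgeR adjusted p = 0.000167), again without overlap.

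Chrm4, the muscarinic receptor that opposes cyclic AMP, had 3.59, 6.27 and 14.3 CPM in D1 and 1.8, 2.89 and 5.89 CPM in D2 (log2 -1.17, SE 0.26, edgeR adjusted p = 0.0447). Its libraries overlapped, and the call was lost with the density covariate (edgeR adjusted p = 0.168). Isl1, a homeobox factor that specifies D1 neurons, had 8.03, 11.2 and 12.9 CPM in D1 and 6.28, 7.75 and 9.08 CPM in D2 (log2 -0.50, SE 0.07, edgeR adjusted p = 0.00038). A single D1 library reached into the D2 range. Lingo2, a leucine-rich repeat membrane protein, had 919 to 1460 CPM in D1 and 647 to 883 CPM in D2 (log2 -0.52, edgeR adjusted p = 0.00207), and Asic4, of the acid-sensing channel family, 18.5 to 24.7 CPM and 14 to 17.9 CPM (log2 -0.37, edgeR adjusted p = 0.00138). Neither overlapped.

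Tac1, the substance P precursor gene, had 22.3, 32.1 and 60.2 CPM in D1 and 12.4, 22 and 30.5 CPM in D2. Its log2 difference of -0.71 (SE 0.18) did not pass (edgeR adjusted p = 0.0762), and its libraries overlapped. The D1 identity genes Ebf1 (-0.11), Reln (-0.12), Plxnd1 (-0.09) and Eya1 (0.05) did not pass either.

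**Figure D2:**
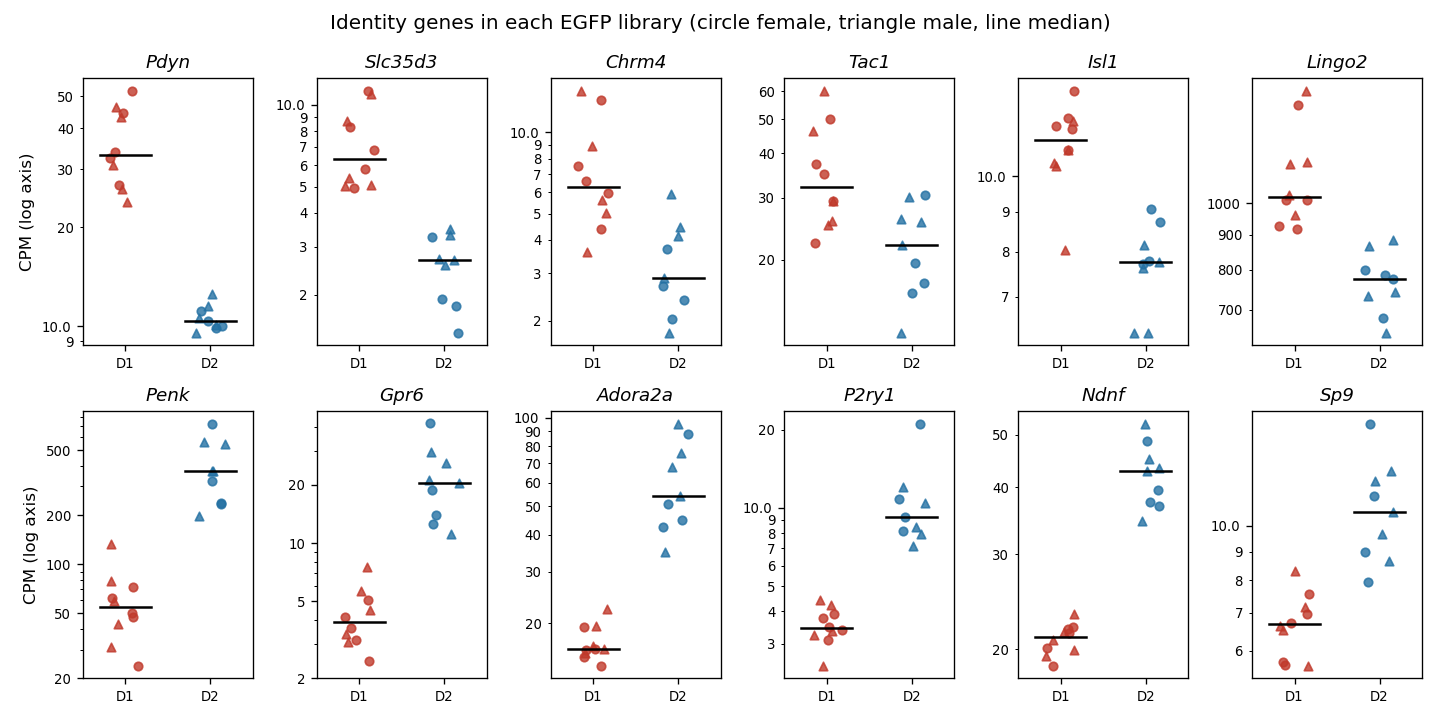
CPM (log axis) of 12 genes in each EGFP library, D1 in red and D2 in blue, circles for female and triangles for male libraries, with a line at the median. Pdyn, Slc35d3, Penk, Gpr6, Adora2a, P2ry1 and Ndnf show no overlap between populations, while Tac1 and Chrm4 overlap.

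Promoter sequence is shown for called identity genes away from the receptor loci, to set the letters around the start site beside genes that moved in opposite directions. The windows run from 250 bases before to 50 bases after the start in the RefSeq table of build GRCm38.p6, which held 14 of the 17 called identity genes. The motifs searched on either strand were TGACGTCA, the full cyclic AMP response element, its shorter form TGACG, which lies within it, the palindromic EBF factor motif, and GGGCGG, a GC box. The first 3 are in capitals below, and the genes printed are those with the largest differences among those that hold one of them.
Gpr6, chr10:41072241-41072540, minus strand: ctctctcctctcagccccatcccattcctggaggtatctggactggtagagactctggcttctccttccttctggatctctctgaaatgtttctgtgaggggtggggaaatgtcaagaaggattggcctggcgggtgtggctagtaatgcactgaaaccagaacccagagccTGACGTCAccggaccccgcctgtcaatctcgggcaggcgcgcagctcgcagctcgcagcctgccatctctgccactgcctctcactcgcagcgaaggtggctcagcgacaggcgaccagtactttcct
Slc35d3, chr10:19851410-19851709, minus strand: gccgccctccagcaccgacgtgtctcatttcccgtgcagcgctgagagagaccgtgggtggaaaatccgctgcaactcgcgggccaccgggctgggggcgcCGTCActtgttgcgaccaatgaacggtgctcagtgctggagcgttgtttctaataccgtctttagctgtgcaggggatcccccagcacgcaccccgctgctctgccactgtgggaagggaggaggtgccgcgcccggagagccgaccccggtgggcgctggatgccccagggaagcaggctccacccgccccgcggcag
Isl1, chr13:116309639-116309938, minus strand: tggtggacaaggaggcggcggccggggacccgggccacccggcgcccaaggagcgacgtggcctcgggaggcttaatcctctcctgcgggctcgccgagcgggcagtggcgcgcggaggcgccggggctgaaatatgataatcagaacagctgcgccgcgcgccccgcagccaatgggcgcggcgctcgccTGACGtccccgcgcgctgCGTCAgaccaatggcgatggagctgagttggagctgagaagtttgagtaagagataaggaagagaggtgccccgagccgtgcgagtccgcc
Ptprm, chr17:67354410-67354709, minus strand: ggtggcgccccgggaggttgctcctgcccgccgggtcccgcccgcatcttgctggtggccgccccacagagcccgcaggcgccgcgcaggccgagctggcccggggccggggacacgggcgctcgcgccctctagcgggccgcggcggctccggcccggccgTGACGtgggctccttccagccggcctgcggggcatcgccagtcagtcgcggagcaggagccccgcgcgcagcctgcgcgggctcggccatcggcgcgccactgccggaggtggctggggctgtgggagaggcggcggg

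Of the 17 windows of these 14 genes, 1 held TGACGTCA (5.88%, against 1.79% of all 32851 windows), that of Gpr6. TGACG was found in 5 (29.4% against 20.8%), the EBF motif in 0 (0.904% of all windows), and GGGCGG in 11 (64.7% against 35.7%). TGACG occurred in genes higher in D2 (Gpr6, Ptprm, Ttc12) and in genes lower in D2 (Slc35d3, Isl1). A match describes letters only, and no table entry was used for Penk, Adora2a or Asic4.

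The 15 genes with the highest difference among called protein-coding genes away from the receptor loci include the identity genes Penk, Gpr6, Adora2a and Sp9. Outside the identity lists they include P2ry1, an ADP receptor. P2ry1 had 2.46, 3.44 and 4.43 CPM in D1 and 7.11, 9.23 and 21.1 CPM in D2 (log2 1.59, SE 0.16, edgeR adjusted p = 1.32e-06). Ndnf, a secreted neurotrophic factor, had 18.6, 21.1 and 23.3 CPM in D1 and 34.6, 42.9 and 52.5 CPM in D2 (log2 1.01, SE 0.07, edgeR adjusted p = 4.27e-10). Neither gene's libraries overlapped. In D1 both lay near silent-gene density, 0.556 and 0.518 CPM per kb.

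Both subunits of the nitric oxide receptor guanylate cyclase were higher in D2. Gucy1a1 had 56.8, 66.1 and 73.6 CPM in D1 and 78.9, 117 and 138 CPM in D2 (log2 0.77, SE 0.09, edgeR adjusted p = 2.45e-05), without overlap. Gucy1b1 had 43.9 to 74.2 CPM and 58.5 to 111 CPM (log2 0.49, edgeR adjusted p = 0.0394), with overlap. With the density covariate its difference was 0.56 (edgeR adjusted p = 0.0659), and its call was lost in 12 of 19 fits that left out a library. Nrgn, a calmodulin-binding protein of dendritic spines, differed by 0.93 (edgeR adjusted p = 0.0266). B3gat1, which makes the HNK-1 carbohydrate, differed by 0.66, Slitrk6 by 0.42 and Gnb5, a G protein beta subunit that partners with RGS proteins, by 0.41. Rcn1, a calcium-binding protein of the endoplasmic reticulum, differed by 0.51 and the sarcoglycan gene Sgcz by 0.41. Gm20721 (0.80) overlaps Gnas on the other strand, so reads of the pair may be shared. In all, 12 of the 15 kept their call with the density covariate and 10 of 15 without each library. Of 19 fits that left out a library, the call was lost in 7 for Nrgn, 12 for Rcn1, 13 for Gnb5 and 1 for Sgcz.

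Among the 15 with the lowest difference, Sstr4, a somatostatin receptor, had 1.26, 2.24 and 3.22 CPM in D1 and 0.62, 0.91 and 1.09 CPM in D2 (log2 -1.34, SE 0.17, edgeR adjusted p = 8.27e-05), without overlap. Shank1, a postsynaptic scaffold, had 38.4 to 45.6 CPM in D1 and 22.4 to 35.9 CPM in D2 (log2 -0.46, edgeR adjusted p = 0.00119), also without overlap. The vesicular glutamate transporter gene Slc17a7, a marker of cortical excitatory neurons, had 8.93 to 28.7 CPM and 5.19 to 10.1 CPM (log2 -0.91, edgeR adjusted p = 0.0414). Dlk1 (-0.74), Syna (-0.60), Hoxb7 (-0.54), Myod1 (-0.49), Tmem267 (-0.48), Kcnk7 (-0.43) and Onecut3 (-0.41) were the others outside the identity lists. The identity genes Pdyn, Slc35d3, Chrm4, Lingo2 and Isl1 are also among the 15. Myod1, a master regulator of skeletal muscle, had 0.812 CPM per kb in D1 and 0.535 CPM per kb in D2, and Hoxb7 and Onecut3 had bulk levels of 0.00976 and 0.0199 CPM.

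Of these 15, 9 lost their call with the density covariate, where the log2 difference was -0.80 for Chrm4, -0.65 for Slc17a7, -0.55 for Dlk1, -0.45 for Syna, -0.43 for Hoxb7, -0.47 for Myod1, -0.42 for Tmem267, -0.38 for Kcnk7 and -0.37 for Onecut3. When a library was left out, 7 of the 15 lost their call in at least 1 of 19 fits: Chrm4, Slc17a7, Dlk1, Syna, Myod1, Kcnk7 and Onecut3. Over all protein-coding calls, the median transcript GC content was 56.3% for the 80 lower in D2, 47% for the 48 higher and 49.7% for the 21270 tested. The part of base composition or silent-gene signal in these calls was not tested.

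Of 16 neuropeptide genes, Penk and Pdyn were the calls, and of 4 opioid receptor genes Oprd1 was. Of 30 other G protein-coupled receptor genes, 1 was called, Drd3, which had 59 to 77.3 CPM in D1 and 51.2 to 64.7 CPM in D2 (log2 -0.27, edgeR adjusted p = 0.0132). Of 28 dopamine and cyclic AMP signalling genes, Gnb5 was called higher and Prkar1b, a regulatory subunit of protein kinase A, lower (log2 -0.24). These calls were lost in 13 and 7 of 19 fits that left out a library. The list's median was 0.15, and 27 of 28 values were above 0, against 23607 of 42202 over all genes tested. Of 33 transcription factors, Sp9 was higher and Isl1 and Foxp4 (log2 -0.27) lower.

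Of 33 axon guidance genes, the netrin receptors Unc5c (log2 0.31) and Unc5d (0.24) and the semaphorin Sema3e (0.30) were called higher and the semaphorin coreceptor Nrp2 (-0.18) lower. Unc5c kept its call without each library, while Sema3e lost it in 3, Unc5d in 11 and Nrp2 in 11 of 19 such fits. Grik3 was the single call among 24 glutamate receptor genes. Of 94 potassium channel genes, Kcnk7 and Kcnk15 (log2 -0.35) were called lower, and each lost its call in 10 of 19 fits that left out a library. None of 18 activity-induced genes was called by edgeR, with 6 at an unadjusted p under 0.05, against 7137 of 42202 over all genes tested. DESeq2 called 1 of the 18 and limma voom 0. The smallest p was that of Jun (log2 0.72, edgeR adjusted p = 0.0695). None of 13 GABA-A receptor genes was called, with 1 at an unadjusted p under 0.05, Gabra3 (log2 0.17, edgeR adjusted p = 0.0601), and DESeq2 called 1 and limma voom 0 of them.

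General markers of spiny projection neurons gave 0 calls of 16, with 6 at an unadjusted p under 0.05. Their values were above 0 for 15 of 16, with a median of 0.18, and DESeq2 called 1 of them and limma voom 0. Over all genes tested, 7137 of 42202 had an unadjusted edgeR p under 0.05 and 23607 had a value above 0, with a median of 0.02. Of the markers of other cell types, Slc17a7 among 10 cortical genes and Slc5a7, the choline transporter gene, among 6 cholinergic genes were called. Slc5a7 (log2 0.32, edgeR adjusted p = 0.0494) is named after its value was seen, and 9 of 12 alternatives lost the call. The edgeR test made 0 calls among 6 patch, 6 matrix, 8 eccentric and island neuron and 12 GABAergic interneuron markers, with 1, 3, 3 and 4 at an unadjusted p under 0.05, where DESeq2 called 0, 1, 2 and 3. No call was made among 10 astrocyte, 10 oligodendrocyte, 5 oligodendrocyte precursor, 10 microglia or 13 endothelial and mural markers by edgeR, DESeq2 or limma voom, with 5, 2, 3, 2 and 2 at an unadjusted edgeR p under 0.05, and no listed marker of any type was at 0 in a library. The summed astrocyte level was 334 to 367 CPM in D1 and 331 to 489 CPM in D2, the highest from D2 male replicate 4. The part of other cells in the calls was not tested.

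**Figure D3:**
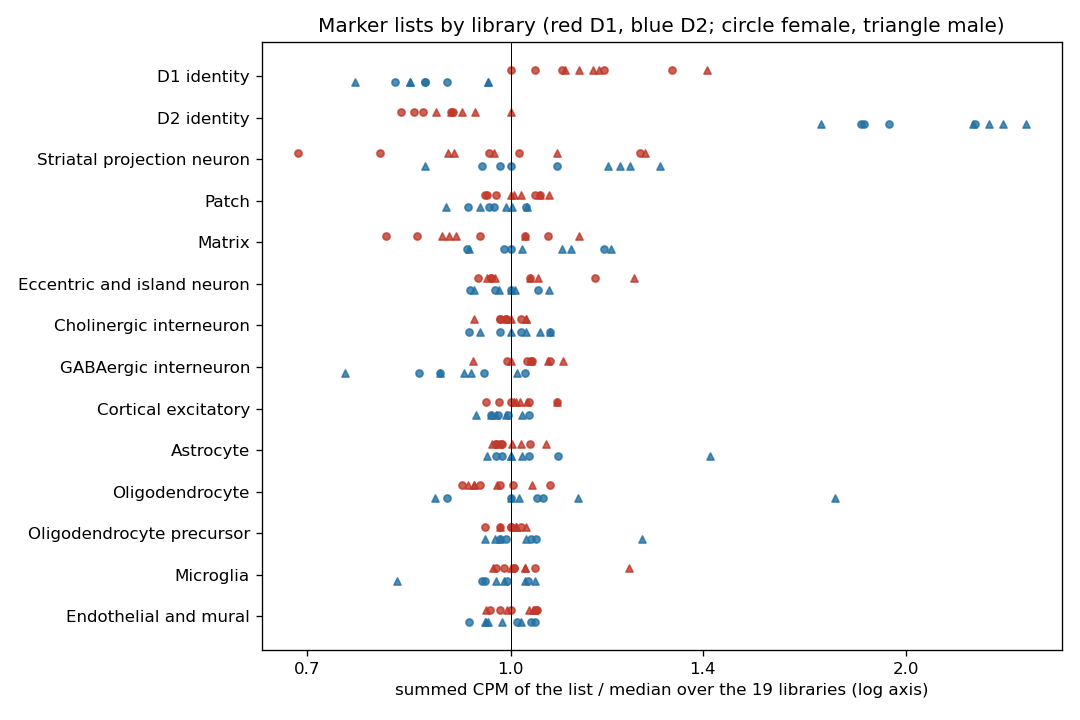
Summed CPM of each marker list in each library, divided by its median over the 19 libraries (log axis), red for D1 and blue for D2, circles female and triangles male. The D2 identity list separates the populations, with 867 to 1050 CPM in D1 and 1810 to 2590 CPM in D2. This sum includes Drd2, with medians of 64 CPM in D1 and 690 CPM in D2, its neighbour Ttc12 (36.3 and 135 CPM) and Penk (54.8 and 372 CPM). The sum without these genes was not computed. D2 male replicate 4 lies to the right in the astrocyte and oligodendrocyte rows.

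Several calls lay side by side in the genome. On chromosome 8, a stretch drawn from its first to its last called gene ran from 49370886 to 50916997 (GRCm38). There 8 of 11 tested genes were called and all 8 were lower in D2, between -0.76 and -0.38 on the log2 scale. They are noncoding or unclassified transcripts: 4930555F03Rik, Gm45697, Gm45323, Gm45324, Gm45341, Gm45455, Gm2516 and C130073E24Rik. C130073E24Rik had 127, 187 and 240 CPM in D1 and 114, 124 and 141 CPM in D2 (log2 -0.56, SE 0.10, edgeR adjusted p = 0.00404), with overlapping libraries. Its bulk level was 1.69 CPM, and the others had at most 0.0527 CPM in bulk. Per length, the 8 had 0.442 to 1.07 CPM per kb in D1 and 0.269 to 0.732 CPM per kb in D2, around silent-gene density. The part of silent-gene signal in them was not tested. Some of these models overlap each other and can share reads, and 4 of the 8 lost the call when a library was left out and 2 with the density covariate. In the RXRa libraries all 8 had the same sign and 0 were called by edgeR, and 3 were called in the fit of all 35 sorted libraries.

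Next to Penk, the antisense-overlapping transcript A830012C17Rik differed by 0.65 (SE 0.07, edgeR adjusted p = 6.48e-06), with 31.9 to 42.3 CPM in D1 and 46.4 to 73.4 CPM in D2. In the same stretch as Ndnf, Hpgds (0.25) was higher. Its call was lost with the density covariate (edgeR adjusted p = 0.0646) and in 10 of 19 fits that left out a library. Beside Oprd1 the unclassified Gm37711 (0.56) was higher, while the called Gm12962 nearby was lower (-0.25). Fig4, a neighbour of Gpr6 on chromosome 10, differed by 0.30 (edgeR adjusted p = 0.000147). Gm37212, on chromosome 1 from 160570161 to 160573810, differed by 1.02, and Rabgap1l, whose annotated body spans it, by 0.30. Whether reads are shared between such neighbours was not tested. The identifier ENSMUSG00000118401, which has no symbol in the tables used here, had 1.39 to 2.74 CPM in D1 and 5.29 to 14.8 CPM in D2 (log2 2.19, edgeR adjusted p = 7.06e-08).

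**Figure D4:**
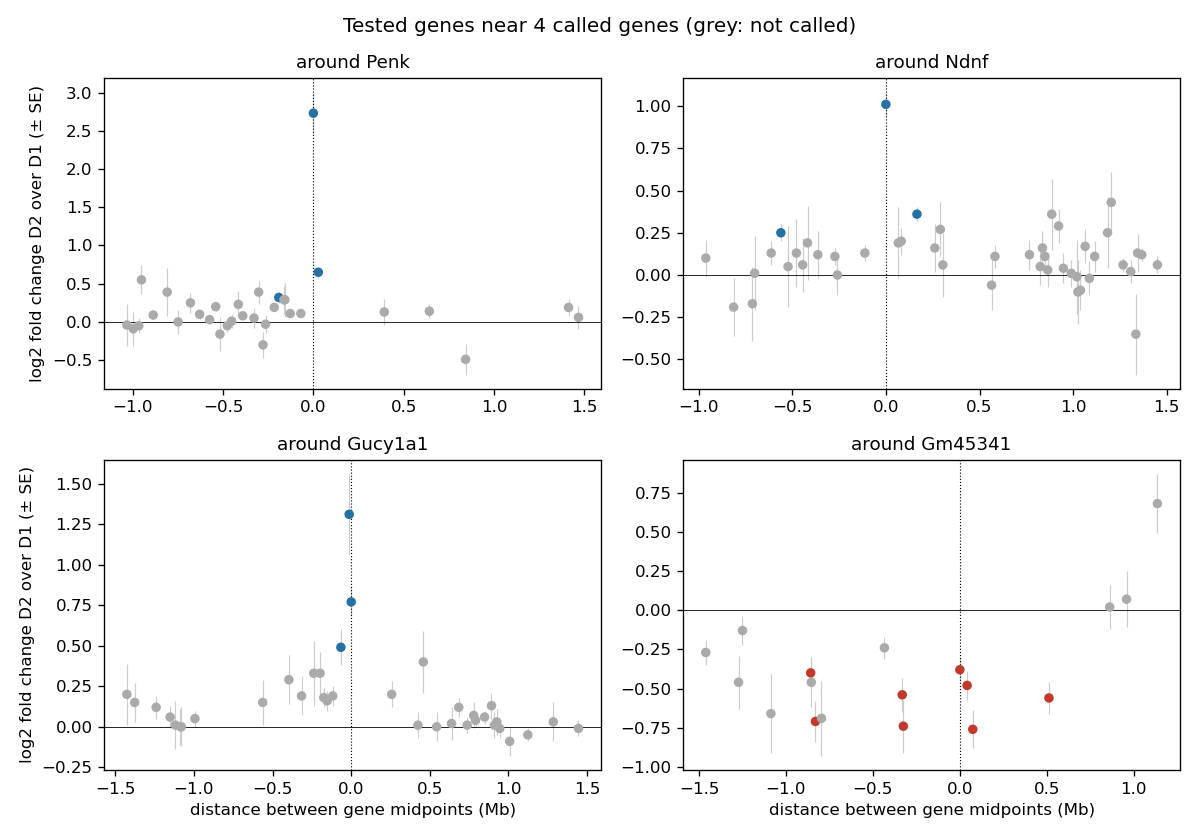
Log2 fold change of D2 over D1 (± SE) for tested genes by the distance between gene midpoints (Mb) from Penk, Ndnf, Gucy1a1 and Gm45341; blue is called higher in D2, red called lower, grey not called. The called genes near Penk, Ndnf and Gucy1a1 lie above 0, and the 8 called genes around Gm45341 lie between -0.76 and -0.38.

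Smaller called differences that held without each library, with the density covariate and with library totals included Nt5e, the ectoenzyme that makes adenosine from AMP, with 31.1 to 38.7 CPM in D1 and 38.7 to 48.7 CPM in D2 (log2 0.33, edgeR adjusted p = 0.000554). Prkd1 (0.33), a protein kinase D, and Necab1 (0.40), a neuronal calcium-binding protein, were also higher. Lower were Sntg2 (-0.33), a syntrophin, Cntnap3 (-0.36), a contactin-associated protein, and the homeobox factor Onecut2 (-0.31). These 6 genes were picked for description after their values were seen.

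D2 and D1 were also compared within each sex, in a fit that held the libraries of both sexes. There 28 genes were called in females (0.0663%) and 40 in males (0.0948%). Of these, 23 were called in both, 13 of them away from the receptor loci. The female count was 31 without D1 male replicate 2. The sexes were thus not analysed separately, and the 23 shared calls are no independent agreement. The male count was 26 without D2 male replicate 3. All 13 called identity genes away from those loci had the same sign in both sexes. They were called on the libraries of both sexes together, so this agreement is largely given in advance. A test of the difference between the sexes called 1 gene, the antisense transcript Gm15726 on chromosome X, which was named after its value was seen.

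The contrast was then read in the RXRa libraries, which share no library with the EGFP ones. There 39 genes were called (0.0935%), or 5504 without D2 male replicate 1 and 29 to 53 without any other library, and 35 of the 198 EGFP calls were called in the same direction, while 184 of 198 had the same sign. Penk differed by 2.69, Gpr6 by 2.61, Adora2a by 2.19, P2ry1 by 1.89 and Ndnf by 1.31 there, and Pdyn by -1.62 and Isl1 by -0.82, all called there. Slc35d3 had -1.05 and did not pass (edgeR adjusted p = 0.0763). Of the 15 highest genes all 15 kept their sign and 10 were called, and of the 15 lowest 14 kept it and 4 were called, Syna being the exception (0.12). Both sets of 15 include identity genes. The RXRa value was the larger in size for 14 of the 15 highest genes, such as Sp9 (1.11 against 0.69) and Gucy1a1 (1.15 against 0.77), and for 2 of the 15 lowest. The direct test of the difference between vectors called 0 genes by edgeR, with 3609 of 43902 tested at an unadjusted p under 0.05.

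**Figure D5:**
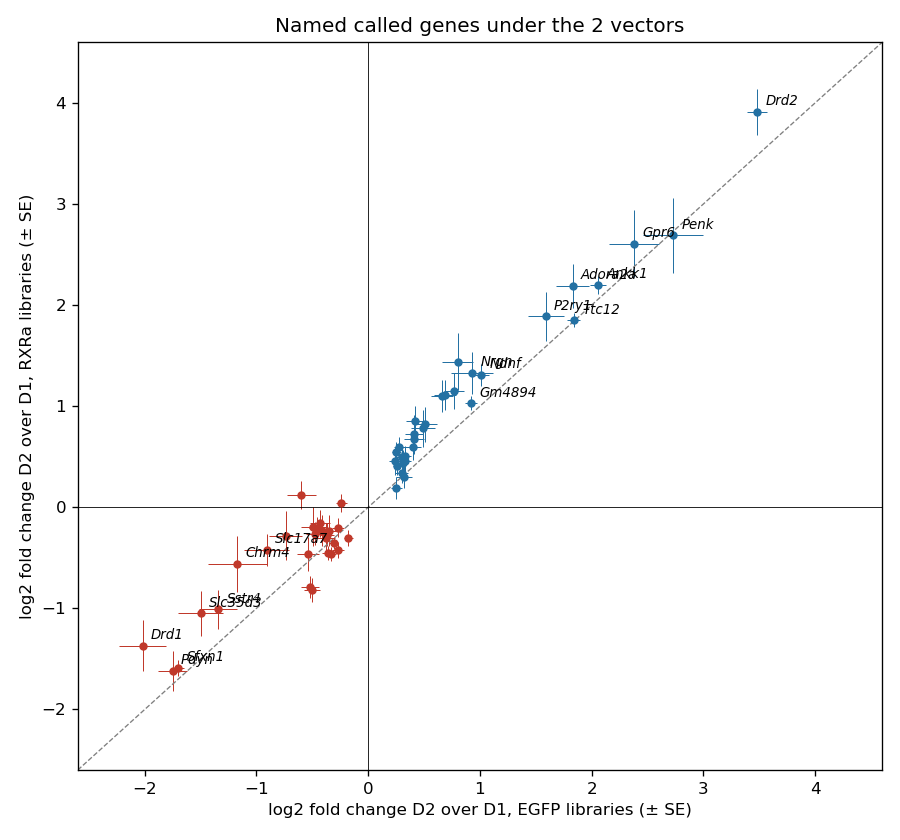
Log2 fold change of D2 over D1 (± SE) in the EGFP libraries (x axis) and the RXRa libraries (y axis) for the named called protein-coding genes; blue is higher and red lower in D2 under EGFP, and the dashed line marks equal values. Penk and Pdyn lie near the line at 2.69 and -1.62 on the y axis, while most blue points, such as Sp9 at 1.11 and Gucy1a1 at 1.15, lie above it.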

How the data were processed

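RNA of sorted nuclei was sequenced from ribosomal-RNA-depleted libraries made with a low-input stranded kit, per the labels' protocols. The deposited values are raw counts per gene with no normalization. FastQC, Trimmomatic, HISAT2, Picard, featureCounts, Subread and the build GRCm38 are named in the submitters' processing notes, and versions, annotation release, strand setting and intron counting are not given in the sources used here. Identifiers were matched to GENCODE M21, 55394 of 55487.

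Counts were tested with edgeR 4.0.16 in R 4.3.3 (quasi-likelihood, filterByExpr by group, TMM, sex as a block), Benjamini-Hochberg adjusted over all genes, threshold 0.05. The 2 vector entries stayed out of library sizes and tests. Each SE is back-calculated, as the absolute log2 difference divided by the square root of the edgeR F statistic. The script was first tested on simulated data. No replicate pair agreed within sampling noise. Genes named are the identity lists, the 15 highest and 15 lowest called protein-coding genes with a mean CPM of at least 1, away from Drd1, Drd2 and sex chromosomes, and up to 4 members of each role list. Members and lists were chosen with earlier results of these data known. One library whose title and vector label disagree entered no comparison. Some genes are not reported here. Alternatives used DESeq2 1.42.0, limma 3.58.1, other scalings, filters and designs.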

Additional observations from a re-analysis of the deposited data

Results flagged for a closer look

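Among 180 groups tested (each named gene in the D1 and in the D2 libraries), 11 held a library far from the others, and chance alone marks about 1 in 20 groups. In D2 male replicate 4, Mbp was at 128 CPM against 102 CPM in the next library and Slc1a2 at 191 CPM against 128 CPM, both markers of glia. In D1 male replicate 2, Penk was at 133 CPM against 79 CPM in the next D1 library, Tmem119 at 4.7 CPM against 3.7 CPM and Gm15726 at 23.4 CPM against 14.3 CPM. In D2 female replicate 3, P2ry1 was at 21.1 CPM against 12 CPM and Gm20721 at 27.3 CPM against 17.9 CPM. Dlk1 was high in D1 female replicate 1 (17.8 CPM against 12.8 CPM), Cntnap3 in D1 male replicate 3 (168 CPM against 143 CPM) and Gm45324 in D2 female replicate 5 (4.54 CPM against 3.41 CPM). Onecut3 was low in D1 female replicate 2 (11.8 CPM against 14.2 CPM).

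The D2 against D1 difference of Gm15726 was 1.44 on the log2 scale in females and -0.68 in males, a difference between the sexes of -2.13 (edgeR adjusted p = 0.0145). Its level was 4.61 to 9 CPM in female D1, 17 to 20.5 CPM in female D2, 6.98 to 23.4 CPM in male D1 and 6.61 to 9.47 CPM in male D2. The call was lost without each of 4 D2 libraries in turn, female replicate 4 and male replicates 3, 4 and 5.

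The vector's RXRa sequence, which the EGFP vector does not carry by its label, had up to 17 counts in an EGFP library (D1 female replicate 3), against 1216 to 13017 counts in the RXRa libraries.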

How the results depend on the processing

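The 198 calls became 130 with library totals, 346 with a mean CPM of at least 1, 945 with DESeq2, 90 with the density covariate and 53 in a fit of all 35 sorted libraries, which shared 51 with the 198. Other settings gave 134 to 227. Leaving out a library gave 81 to 826 calls. Within females the range was 23 to 32, within males 26 to 48 and for the difference between sexes 0 to 2, where library totals and the covariate gave 2 each. Under RXRa, library totals gave 72 calls, the covariate 79 and leaving out a library 29 to 5504. The silent-gene difference ranged from 0.05 to 0.09 with a library left out (exact permutation p = 0.00737 to 0.106). The cause of these changes was not tested. Same-numbered replicates did not pair: r was -0.40 to 0.55 over 9 pairs, 3 over 0.1 and 0 best with their own number. The replicate block gave 155 calls, against 227 for the same libraries without it, a reference added after seeing the data.

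Over the named genes, 2453 of 2783 values in 31 alternatives kept direction and call, 308 lost the call, 12 gained it and 10 changed sign. With the covariate Eya1 was -0.01, Plxnd1 0.02, Plxdc1 0.03 and Chat 0.01. Without D2 male replicate 4, Plxdc1 was 0, Mbp 0 and Slc1a2 -0.06. Chat was 0.01 without D2 female replicate 3 and 0 without D2 male replicate 2, and Slc1a2 was 0 without D1 male replicate 3. None of these uncalled genes passed in either direction. With a library left out, Mbp ranged from 0 to 0.06 and Slc1a2 from -0.06 to 0.07. Total counts of 12211655 to 27757463 per library limit what can be seen of genes near 0.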

Other observations

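The 7 small RNAs among the calls were all higher in D2, against 73 of all 198 calls. One of them, the small nuclear RNA Gm23511, had a log2 difference of 1.5 here and -0.07 in the RXRa libraries (edgeR adjusted p = 0.945). Its medians were 0.248 CPM in D1 and 0.587 CPM in D2. Of the other noncoding genes called, 12 were higher and 38 lower, and of pseudogenes 5 were higher and 7 lower. The numbers tested in these classes are not given here, so no share can be read from the counts. Genes with no count in bulk tissue gave 11 calls higher and 12 lower of 10916 tested, and genes above 10 CPM in bulk gave 34 higher and 45 lower of 11111. The median gene body of called protein-coding genes was 31.9 kb for those higher in D2 and 25.3 kb for those lower, against 18.4 kb for all tested.

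On chromosome 14, Nrg3, a neuregulin that binds ERBB4, was lower in D2 (log2 -0.38, edgeR adjusted p = 0.031), with 931, 1190 and 1600 CPM as lowest, median and highest in D1 and 851, 956 and 1040 CPM in D2. Its libraries overlapped, and the call was lost with the density covariate, where the difference was -0.41 (edgeR adjusted p = 0.0772), and in 5 of 19 fits that left out a library.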
